A study of Mus musculus with 6 samples.

Results

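The TGF-beta ligands, receptors and SMADs were described here by 10 genes, matched by symbol to 10 of the 55536 Ensembl genes in the deposited count table. The ligands were Tgfb1, Tgfb2 and Tgfb3, the receptors Tgfbr1, Tgfbr2 and Tgfbr3, and the SMADs Smad2, Smad3, Smad4 and Smad7. The samples were liver tumours from male C3H mice, 3 Control (untreated) and 3 TSDP, each sequenced as 1 mRNA library. TSDP is the labels' name for nanoparticles carrying sorafenib, a kinase inhibitor used in liver cancer, and DNIC, a nitric oxide donor. Each tumour grew from 1000000 HCA-1 cells injected beneath the liver capsule at 6 to 8 weeks of age; HCA-1 is a murine line of hepatocellular carcinoma. TSDP was given into a vein 6 times from day 10 to day 23, and all tumours were taken on day 24. Whether Control mice were given an unloaded carrier is not in the labels, and the model rests on 1 line implanted in intact hosts. The comparison asked whether the RNA of these genes differed between tumours with and without the treatment.

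TGF-beta is a secreted cytokine that is held in a latent complex until it is released. The free ligand brings together a pair of kinase receptors, which phosphorylate SMAD proteins that then move to the nucleus with a shared partner and regulate genes. In liver it is known for driving matrix production by stellate cells, for slowing hepatocyte growth and for restraining T cells.

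Total counts ran from 32130808 to 38953397 per library. Libraries of 1 group differed widely in their content of hepatocyte RNA. Values are given throughout in the order Control 3, 4 and 5, then TSDP 1, 2 and 5, as CPM (counts per 1000000, scaled by TMM factors). The summed level of 10 hepatocyte markers was 98.8, 20719 and 3677 CPM for the Control libraries and 29803, 56763 and 18700 CPM for TSDP, with 10 of 10 markers positive in fold change and 0 called by edgeR. Of the markers of the labelled tumour cells, the keratins Krt8 and Krt18 were counted at 431.5 CPM or more in every library, whereas the liver tumour genes Afp, Gpc3 and Epcam lay between 0.4325 and 13.49 CPM. These tumour cell markers were 5 of 5 positive, Krt8 by a log2 fold change of only 0.002, with overlapping sums and 0 called. Afp lay entirely higher in TSDP, whereas Gpc3, Krt8, Krt18 and Epcam overlapped between the groups. T cell markers were 6 of 6 positive, with summed levels of 18.2 to 44.9 CPM in Control and 51.9 to 54.8 CPM in TSDP. Of these markers Cd4 and Foxp3 lay entirely higher in TSDP, whereas Cd3d, Cd3e, Cd8a and Il2ra overlapped between the groups. Macrophage markers were 5 of 7 positive and platelet markers 0 of 3, both with overlapping sums, and edgeR called 0 in each list. Of all genes 47.3% were positive and 13% lay entirely higher in TSDP. In these bulk samples fewer cells of a type and less RNA per cell cannot be told apart.

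The 10 genes lie on 7 chromosomes of GRCm38 (GENCODE M21, whose gene IDs are those of the count table). The ligands are at chr7:25687002-25705077 (Tgfb1, plus strand), chr1:186622792-186705989 (Tgfb2, minus) and chr12:86056745-86079041 (Tgfb3, minus). The receptors are at chr4:47353222-47414931 (Tgfbr1, plus), chr9:116084293-116175360 (Tgfbr2, minus) and chr5:107106570-107289629 (Tgfbr3, minus). Smad3 is at chr9:63646767-63757994 (minus), and the positions of the other SMADs are given with their values. Exons of another gene covered 12.42% of the exon bases of Tgfb3, 4.54% of Tgfbr3 and 2.14% of Tgfb2, and 0% of the other 7. The genes overlapping Tgfb3 and Tgfb2 lie on the opposite strand, and the gene overlapping Tgfbr3 on the same strand. Whether the counting used strand is not given in the sources used here. Without strand, reads in those stretches cannot be assigned to 1 gene, and for Tgfbr3 strand would not help.

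Promoter windows were in RefSeq's table (GRCm38.p6) for 5 of the 10 genes: Tgfb1, Tgfb2, Tgfbr1, Tgfbr2 and Smad3. The 250 bases before the start site are printed for a pair of ligand genes and for the signalling receptor genes, because the members of each pair differed in how far the highest library stood above the lowest: 1.42-fold for Tgfb1 and 1.88-fold for Tgfb2, 1.33-fold for Tgfbr1 and 1.73-fold for Tgfbr2. These pairs were chosen after their values were seen. Capitals mark matches to the GC box (GGGCGG or its complement CCGCCC), the TATA box (TATAAA or TTTATA) and the E-box (CACGTG).
Tgfb1, chr7:25686752-25687001, plus strand: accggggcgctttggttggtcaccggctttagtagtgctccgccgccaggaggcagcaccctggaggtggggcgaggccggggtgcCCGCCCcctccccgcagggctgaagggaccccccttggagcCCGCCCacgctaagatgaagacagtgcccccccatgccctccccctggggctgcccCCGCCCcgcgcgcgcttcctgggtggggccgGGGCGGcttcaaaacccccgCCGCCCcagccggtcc
Tgfb2, chr1:186705990-186706239, minus strand: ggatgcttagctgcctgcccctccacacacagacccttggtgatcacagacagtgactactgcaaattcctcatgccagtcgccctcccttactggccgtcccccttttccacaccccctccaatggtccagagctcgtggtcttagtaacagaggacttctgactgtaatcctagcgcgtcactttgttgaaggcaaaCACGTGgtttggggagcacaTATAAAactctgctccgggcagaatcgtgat
Tgfbr1, chr4:47352972-47353221, plus strand: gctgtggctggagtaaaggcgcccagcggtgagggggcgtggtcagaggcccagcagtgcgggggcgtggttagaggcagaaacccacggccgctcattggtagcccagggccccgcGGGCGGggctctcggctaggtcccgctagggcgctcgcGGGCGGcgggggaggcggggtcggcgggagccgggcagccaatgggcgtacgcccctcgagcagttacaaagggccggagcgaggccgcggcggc
Tgfbr2, chr9:116175364-116175613, minus strand: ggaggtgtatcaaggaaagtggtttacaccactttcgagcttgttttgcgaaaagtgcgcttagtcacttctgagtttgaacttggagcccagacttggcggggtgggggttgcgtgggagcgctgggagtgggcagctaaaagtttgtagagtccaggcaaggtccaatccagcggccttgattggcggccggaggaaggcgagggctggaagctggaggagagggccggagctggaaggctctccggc
The Tgfb1 window held 5 GC boxes, with 75.2% of its bases G or C. The Tgfb2 window held 0 GC boxes but an E-box starting 51 bases and a TATA box starting 31 bases before the start site, with 53.6% G or C. The Tgfbr1 window, the first of 2 in the table, held 2 GC boxes at 74.8% G or C and the second, not printed, 0 matches, and the Tgfbr2 window none of these motifs at 58.4%. Smad3, not printed, held 2 GC boxes at 69.2% G or C, and its highest library stood 1.83-fold above its lowest. A link between motifs and the spread of libraries was not tested. A GC box occurred in 32.7% of 32851 windows of the same length in the table, a TATA box in 12.4% and an E-box in 6.02%. Motifs of SMADs and their partners were also searched on both strands: the palindrome GTCTAGAC occurred in 0.167% of all windows, the CAGA box AGCCAGACA in 0.301% and the AP-1 site TGANTCA in 6.75%, each in 0 windows of the 5 genes. A match is a run of letters and not a measured binding site.

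None of the 10 genes passed the test. All 10 were well counted, with 303 reads or more in every library, and 0 had an adjusted p under 0.05 in edgeR's quasi-likelihood F test over 17423 genes, where 0% of all genes were called. DESeq2 and limma-voom also called 0 of the 10, although DESeq2 called 3.4% of its genes. At an unadjusted p under 0.05 each of these tools held 1 of the 10, Tgfbr3, which was lower in TSDP. Such a p was held by 13.4% of all genes in edgeR, where 4.75% were lower with it, by 14.5% in DESeq2 and by 15.2% in limma-voom. Of the 10 log2 fold changes (TSDP over Control) 3 were positive and 7 negative, against 47.3% and 52.7% of all genes, with a median of -0.16 against -0.02 over all genes. The highest library stood above the lowest by 1.33-fold (Tgfbr1) to 2.06-fold (Tgfbr3).

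**Figure D1:**
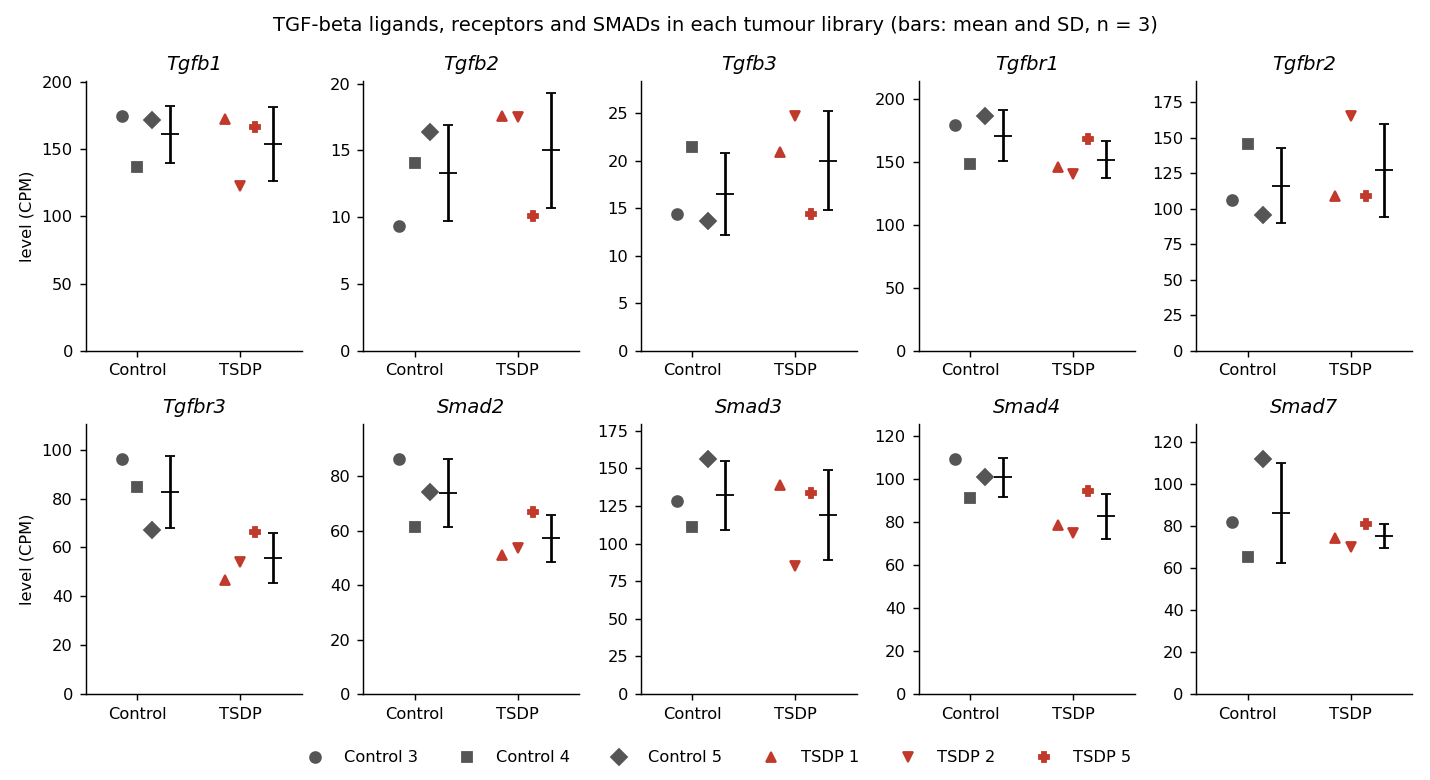
Level of each of the 10 genes (CPM, linear axis from 0) in the 3 Control and 3 TSDP libraries, with black bars for the mean and SD of each group. The groups overlap in 9 panels, and for Tgfbr3 the lowest Control library (66.94 CPM) is just above the highest TSDP library (66.49 CPM).

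Among the ligands, Tgfb1, the isoform made by most immune and stromal cells, was counted at 174.6, 137.1 and 172.1 CPM in Control tumours and 172.8, 122.6 and 166.6 CPM in TSDP tumours. Each group held 1 lower library, Control 4 and TSDP 2, and the groups overlapped. Its log2 fold change was -0.07 ± 0.18 (SE), with a 95% interval from -0.50 to 0.36 and an edgeR adjusted p of 0.886. The direction turned to 0.07 without TSDP 2 and to 0.12 with the hepatocyte score as a covariate.

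Tgfb2, a ligand that needs the co-receptor betaglycan for strong receptor binding, stood at 9.36, 14.08 and 16.36 CPM in Control tumours and 17.56, 17.48 and 10.1 CPM in TSDP tumours. Control 3 and TSDP 5 were the low libraries. This gave a log2 fold change of 0.18 ± 0.30 (SE, interval -0.54 to 0.90, edgeR adjusted p = 0.805), which was -0.03 without Control 3 and -0.22 with the covariate. Tgfb3, the isoform known from palate and wound repair, stood at 14.4, 21.47 and 13.67 CPM in Control tumours and 20.95, 24.68 and 14.34 CPM in TSDP tumours. Control 4, TSDP 1 and TSDP 2 were high and the other 3 low. Its log2 fold change was 0.28 ± 0.27 (SE, interval -0.37 to 0.92, edgeR adjusted p = 0.661), or -0.02 with the covariate.

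The signalling receptors are a pair: Tgfbr2 binds the ligand and phosphorylates Tgfbr1, which in turn phosphorylates the SMADs. Tgfbr1 was counted at 179.5, 148.2 and 186.5 CPM in Control tumours and 146.5, 140.3 and 168.5 CPM in TSDP tumours. Control 3 and Control 5 lay above all TSDP libraries, and Control 4 among them. The log2 fold change was -0.18 ± 0.14 (SE, interval -0.51 to 0.16, edgeR adjusted p = 0.594).

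Tgfbr2 was counted at 106.4, 145.5 and 95.25 CPM in Control tumours and 108.6, 165.1 and 108.6 CPM in TSDP tumours. In each group 1 library stood well above the other two, Control 4 and TSDP 2. Tgfbr2 had a log2 fold change of 0.14 ± 0.24 (SE, interval -0.43 to 0.71, edgeR adjusted p = 0.814), and it turned to -0.10 without TSDP 2, to -0.01 without Control 5 and to -0.09 with the covariate. Control 4 and TSDP 2 also carried the most hepatocyte marker RNA of their groups, and the most RNA of the 9 fibroblast and stellate cell markers, 514 CPM against 236 and 475 in the other Control libraries and 1022 CPM against 542 and 424 in the other TSDP libraries. The sums of macrophage, T cell and liver sinusoidal endothelial markers were also highest in Control 4 and TSDP 2 within their groups. Those of endothelium, tumour cells and platelets were highest in another Control library. The part of any of these cell types in the Tgfbr2 levels was not tested.

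Tgfbr3 encodes betaglycan, a co-receptor without kinase activity that presents ligand to Tgfbr2. It was counted at 96.01, 84.85 and 66.94 CPM in Control tumours and 46.5, 53.83 and 66.49 CPM in TSDP tumours. All TSDP libraries lay below all Control libraries, but by less than 1 CPM between Control 5 and TSDP 5. The log2 fold change was -0.57 ± 0.19 (SE), a ratio of 0.673, with a 95% interval from -1.03 to -0.11, an unadjusted p of 0.022 and an edgeR adjusted p of 0.334. Of all genes 8.76% had TSDP libraries entirely below Control. On 2 other scales, chosen after the values were seen, the groups stayed apart as CPM without TMM factors (69.13 in Control 5 and 65.51 in TSDP 5) and met in the authors' deposited normalized table (2338.7 and 2338.8). The fold change was negative in all 14 alternative fits, between -0.72 and -0.41, with adjusted p from 0.155 (DESeq2) to 0.852 (hepatocyte covariate). Its unadjusted p lay between 0.0108 and 0.0216 under the other scalings, filters and tools, and was 0.012 and 0.0122 without Control 5 or TSDP 5. It was above 0.05 with the covariate (0.109) and without Control 3 (0.0571), Control 4 (0.052), TSDP 1 (0.0746) or TSDP 2 (0.0542).

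The SMADs named here take 3 roles. Smad2 and Smad3 are phosphorylated by the receptor, Smad4 is their shared partner, and Smad7 is an inhibitor that the pathway itself induces. Smad2, Smad4 and Smad7 lie at chr18:76241580-76310963 (plus strand), chr18:73639009-73703780 (minus) and chr18:75367529-75395935 (plus). Smad2 was counted at 86.22, 61.3 and 74.22 CPM in Control tumours and 50.94, 53.72 and 66.99 CPM in TSDP tumours. The groups overlapped through Control 4, which lay below TSDP 5. Smad2 had a log2 fold change of -0.37 ± 0.17 (SE, interval -0.78 to 0.04, edgeR adjusted p = 0.408), and it was -0.10 with the hepatocyte covariate.

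Smad4 was counted at 109.3, 91.29 and 101 CPM in Control tumours and 78.82, 74.87 and 94.56 CPM in TSDP tumours. As for Smad2, the overlap came from Control 4 and TSDP 5. Smad4 had a log2 fold change of -0.28 ± 0.13 (SE, interval -0.60 to 0.04, edgeR adjusted p = 0.415), or -0.13 with the covariate. Without TSDP 5 the unadjusted edgeR p was 0.0353 for Smad2 and 0.0335 for Smad4, with adjusted p of 0.358 and 0.356. It was also under 0.05 for both with upper-quartile factors (0.0376 and 0.0356), and for Smad2 without Control 4 (0.0277).

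Smad3 was counted at 128.2, 111 and 156 CPM in Control tumours and 139.1, 85.19 and 133.5 CPM in TSDP tumours, with TSDP 2 the lowest of all. The log2 fold change was -0.14 ± 0.23 (SE, interval -0.69 to 0.41, edgeR adjusted p = 0.797) and turned to 0.04 without TSDP 2. Smad7 was counted at 81.95, 65.01 and 111.7 CPM in Control tumours and 74.44, 70.05 and 81.11 CPM in TSDP tumours. Control 5 stood above all other libraries, and the TSDP libraries lay close together between Control 4 and Control 3. Its log2 fold change was -0.20 ± 0.21 (SE, interval -0.69 to 0.30, edgeR adjusted p = 0.685) and turned to 0.02 without Control 5.

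**Figure D2:**
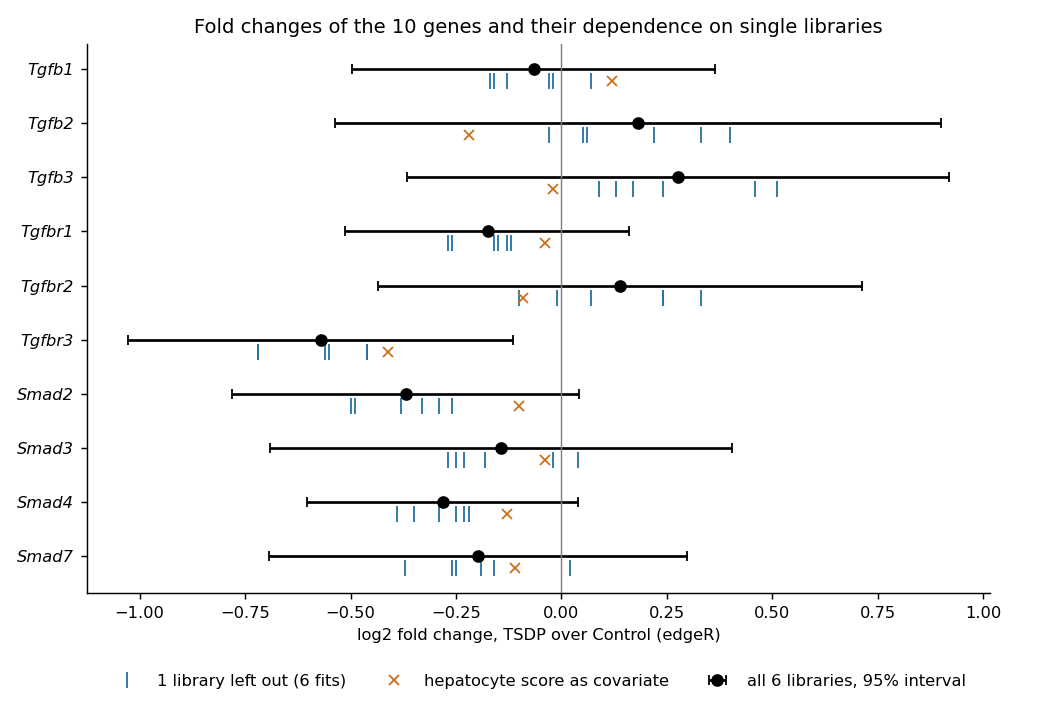
Log2 fold change (TSDP over Control) of each gene from the edgeR fit with its 95% interval (black), with the values after leaving out each library (blue) and with a hepatocyte score as covariate (orange). The interval leaves out 0 for Tgfbr3 alone, from -1.03 to -0.11, before adjustment over all genes, and the values of 6 genes lie on both sides of 0.

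The order of levels among the 10 genes was taken per kilobase of exon, as CPM divided by the length of all annotated exons. Tgfb1 stood first at a mean of 31.3 CPM per kilobase (24.3 to 34.6 over the 6 libraries), ahead of Tgfbr1 and Smad4, both at 24.7, Smad3 at 22.6 and Smad7 at 17.9. Tgfbr2 followed at 14.9, Tgfbr3 at 10.6 and Smad2 at 7.47. The ligand isoforms Tgfb3 and Tgfb2 were last at 5.39 (4.04 to 7.29) and 2.44 (1.62 to 3.03). Neighbours in this order overlapped in range over the 6 libraries, with 1 exception, Tgfb3 over Tgfb2.

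Ratios within a library do not depend on the scaling between libraries, and 6 of them were compared by exact permutation (two-sided, smallest possible p = 0.1). For every 100 reads of Tgfb1 there were 5.36, 10.3 and 9.51 reads of Tgfb2 in Control tumours and 10.2, 14.3 and 6.06 in TSDP tumours. The corresponding reads of Tgfb3 were 8.25, 15.7 and 7.95, and 12.1, 20.1 and 8.61. Control 4 and TSDP 2 thus had the largest shares of the minor isoforms in their groups, and the groups overlapped. The log2 ratio differed between the groups by 0.25 for Tgfb2 over Tgfb1 (exact permutation p = 0.6) and by 0.34 for Tgfb3 over Tgfb1 (p = 0.5).

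Reads of Tgfbr2 per 100 reads of Tgfbr1 were 59.3, 98.1 and 51.1 in Control tumours and 74.1, 118 and 64.5 in TSDP tumours. TSDP 2 was the 1 library with more reads of Tgfbr2 than of Tgfbr1. Group means of the log2 ratio were -0.58 ± 0.49 for Control and -0.28 ± 0.45 for TSDP (SD, n = 3, with an exact permutation p of 0.5). Reads of Tgfbr3 per 100 of Tgfbr1 were 53.5, 57.2 and 35.9 in Control tumours and 31.7, 38.4 and 39.5 in TSDP tumours. Control 5 lay among the TSDP libraries, so the groups overlapped (difference -0.40 on the log2 scale, exact permutation p = 0.3). Smad2 over Smad3 differed by -0.20 (p = 0.5) and Smad7 over Smad4 by 0.12 (p = 0.6), both exact. After Benjamini-Hochberg adjustment over the 6 ratios each p was 0.6.

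**Figure D3:**
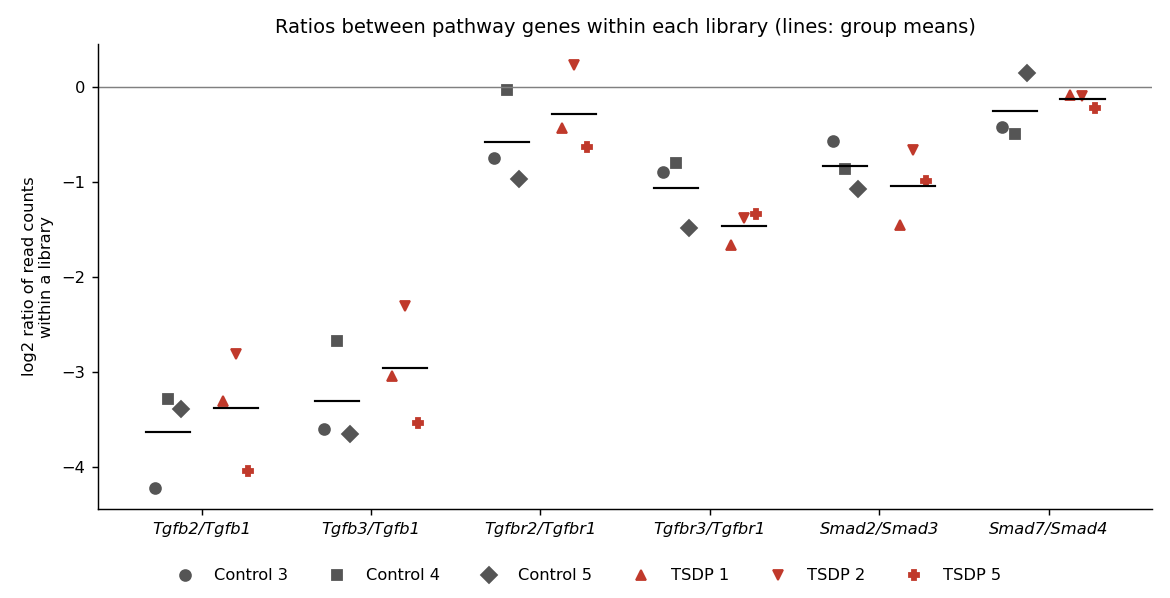
Log2 ratio of read counts between 2 genes of the pathway within each library (axis in log2 units), with a line at each group mean. Control and TSDP libraries overlap for all 6 ratios, and Control 4 and TSDP 2 have the highest Tgfbr2/Tgfbr1 ratios, at -0.03 and 0.23.

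The genes around the core were taken from 5 lists with 79 genes. Of the 78 tested, edgeR and limma-voom each called 0, beside 0% of all genes, and DESeq2 called 2, Acvr2b and Bmp6, beside 3.4% of all its genes. An unadjusted p under 0.05 was held by 7 of the 78 in edgeR (8.97%, against 13.4% of all genes), 10 in limma-voom (12.8% against 15.2%) and 12 in DESeq2 (15.4% against 14.5%). Groups without overlap, in either direction, were seen for 21.8% of all genes. In the lists they were seen for Eng and Cd109 of 13 genes, Smad9 of 12, Snai2 of 22, and Acvr2b and Bmp6 of 17. In the list of latency and activation they were seen for 0 of 14. In the list of latency and activation 7 of 14 tested genes were positive and 7 negative, with a median log2 fold change of 0.00 against -0.02 over all genes. Thbs1, thrombospondin, which releases latent TGF-beta, was counted at 589.2, 553.6 and 1193 CPM in Control tumours and 337.9, 420.9 and 601.1 CPM in TSDP tumours (log2 fold change -0.78 ± 0.37 SE, edgeR adjusted p = 0.417). Control 5 was the highest library by far. Ltbp1, which anchors the latent complex to matrix, averaged 519 CPM ± 112 and 384 CPM ± 108 (SD, n = 3 each). Lrrc32, also called GARP, which holds latent TGF-beta on regulatory T cells and endothelium, averaged 14.9 CPM ± 5 and 24.6 CPM ± 11.1, and the matrix protein Emilin1 33.8 CPM ± 11.6 and 51.6 CPM ± 17.

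Among co-receptors and receptor regulators 5 of 13 were positive and 8 negative, with a median of -0.04 that turned to 0.05 without Control 3 and was -0.14 without Control 4. Eng, endoglin, an endothelial co-receptor, was counted at 23.97, 53.54 and 43.82 CPM in Control tumours and 83.34, 141.6 and 58.15 CPM in TSDP tumours. All TSDP libraries lay above all Control libraries, as for 13% of all genes (log2 fold change 1.22 ± 0.41 SE, edgeR adjusted p = 0.336). The summed level of 8 endothelial markers was likewise separated, at 160 to 234 CPM in Control and 239 to 388 CPM in TSDP. Of these markers 8 of 8 were positive and 0 called. Kdr, Tek, Emcn and Robo4 lay entirely higher in TSDP, whereas Pecam1, Cdh5, Vwf and Erg overlapped between the groups. The part of the endothelial markers in the Eng values was not tested. Cd109, a co-receptor that dampens the signal, was 200.8, 128.7 and 138.6 CPM in Control tumours and 119.6, 104.5 and 124.7 CPM in TSDP tumours, also without overlap (log2 fold change -0.42 ± 0.20 SE, edgeR adjusted p = 0.405). The ubiquitin ligase Smurf1, which removes receptors and SMADs, averaged 279 CPM ± 51.8 and 180 CPM ± 58.8, and the decoy receptor Bambi 1.83 CPM ± 0.65 and 3.77 CPM ± 1.84.

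Among the other SMADs and SMAD regulators 5 of 12 were positive and 7 negative, with a median of -0.15 that was 0.01 with the hepatocyte covariate. Smad9, a SMAD of the BMP branch, was 0.7723, 1.533 and 0.9943 CPM in Control tumours and 2.273, 5.201 and 1.869 CPM in TSDP tumours, without overlap (log2 fold change 1.50 ± 0.49 SE, edgeR adjusted p = 0.334). Its reads were few, 25, 50 and 40 in Control and 83, 180 and 67 in TSDP. Smad5, of the same branch, averaged 100 CPM ± 16.3 and 83.8 CPM ± 3.27. The co-repressor Ski averaged 296 CPM ± 44.6 and 234 CPM ± 40.8, and Trim33, a ubiquitin ligase that acts on SMAD complexes, 127 CPM ± 26.3 and 93.7 CPM ± 13.4.

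Of the 22 target genes of TGF-beta 13 were positive and 9 negative, with a median of 0.16 that turned to -0.09 without TSDP 2, to -0.03 without Control 3 and to -0.12 with the hepatocyte covariate. Targets did not share a direction. Snai2, a factor of epithelial-mesenchymal transition, was counted at 4.788, 3.496 and 4.35 CPM in Control tumours and 6.792, 8.293 and 4.938 CPM in TSDP tumours, without overlap (log2 fold change 0.66 ± 0.26 SE, edgeR adjusted p = 0.365). The matrix protein Tgfbi averaged 127 CPM ± 35.5 and 181 CPM ± 22.2, and Acta2, smooth muscle actin of activated stellate cells, 56.1 CPM ± 29.1 and 104 CPM ± 26.4. The fibroblast and stellate cell markers had 9 of 9 positive fold changes and 0 called, with summed levels of 236 to 514 CPM in Control and 424 to 1022 CPM in TSDP, and their part in these values was not tested. Pmepa1, an inhibitor that SMADs induce, had a log2 fold change of -0.01 ± 0.17 (SE).

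In the branch of BMPs and activins, relatives that signal through other receptors of the same kind, 8 of 17 tested genes were positive and 9 negative, with a median of -0.04 that was -0.22 without Control 4. Nog, also on the list, was filtered out for low counts. Acvr2b, an activin receptor, was counted at 5.468, 4.508 and 6.289 CPM in Control tumours and 3.396, 2.803 and 3.125 CPM in TSDP tumours, without overlap (log2 fold change -0.80 ± 0.21 SE, unadjusted p = 0.00834, edgeR adjusted p = 0.326, DESeq2 adjusted p = 0.0399). Bmp6, a ligand made by sinusoidal endothelium that controls iron, was counted at 0.2471, 0.92 and 0.6463 CPM in Control tumours and 1.917, 4.306 and 1.535 CPM in TSDP tumours, also without overlap (log2 fold change 2.09 ± 0.61 SE, edgeR adjusted p = 0.329, DESeq2 adjusted p = 0.0208). These Bmp6 values rest on few reads, 8, 30 and 26 in Control and 70, 149 and 55 in TSDP. The summed level of 5 sinusoidal markers was 188 to 281 CPM in Control and 300 to 502 CPM in TSDP. Fcgr2b made up much of it, at 148 to 252.1 CPM in Control and 201.8 to 246.5 CPM in TSDP. Fcgr2b and Lyve1 overlapped between the groups, and Stab2, Clec4g and Oit3 did not. In Control 3 Stab2, Clec4g and Oit3 were low, at 0.7414, 0.03089 and 1.637 CPM. The part of the sinusoidal markers in the Bmp6 values was not tested. Bmp4 averaged 37.3 CPM ± 8.32 and 22 CPM ± 8.88, and Id2, a target of BMP signals, 127 CPM ± 6.16 and 163 CPM ± 31.3.

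**Figure D4:**
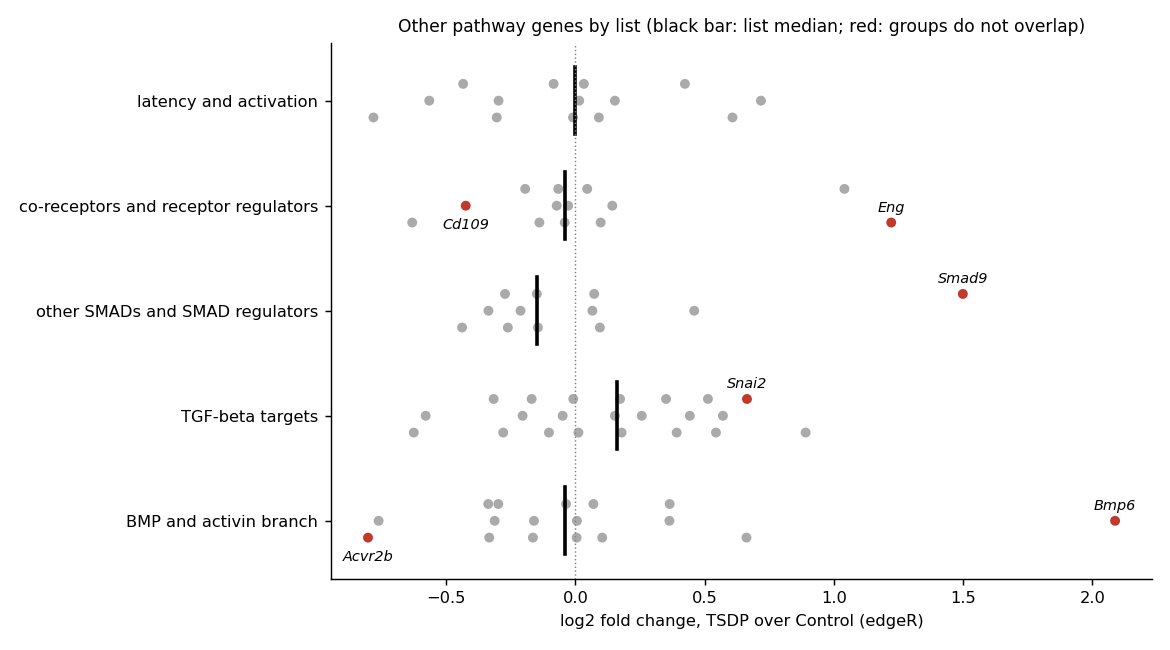
Log2 fold change (TSDP over Control, edgeR) of each tested gene in the 5 lists around the core pathway, 1 point per gene, with a bar at the list median and red points where the 3 TSDP and 3 Control libraries do not overlap. The medians lie between -0.15 and 0.16, and 0 genes passed the adjusted threshold in edgeR. Of all tested genes 21.8% had groups without overlap.

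For 1 gene of each role the closest profiles over the 6 libraries were sought among 9700 genes, by the root mean square difference of centred log2 CPM. Tgfb1 was nearest to Tsg101, Aldh18a1 and Cldnd1, at 0.035, 0.035 and 0.036. Tgfbr2 was nearest to Agtrap (0.058), Acvrl1 (0.071), an endothelial receptor of the TGF-beta family, and Itpkb (0.077), each highest in TSDP 2 and next in Control 4. Smad7 was nearest to Zbtb26 (0.06), Taf4b (0.064) and Rsbn1 (0.069), each highest in Control 5. With 6 libraries such nearness is a description.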

How the data were processed

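RNA of 6 tumours was prepared with the KAPA mRNA HyperPrep chemistry (per the labels). Trimmomatic 0.38, HISAT2 2.1.0 and featureCounts 2.0.0 were among the tools used, per the submitters' processing notes. No source used here names the build, the annotation release or the strandedness; all 55536 gene IDs of the deposited count table are those of GENCODE M21 (GRCm38), which supplied positions and exon lengths. In the deposited normalized signal table the authors divided each count by a library constant; it gave the gene symbols. Groups and replicates came from the sample titles (Control 3, 4 and 5; TSDP 1, 2 and 5). Nothing else states that the samples are independent, and p-values measure only their spread. The least different pair of libraries still had a chi-square per gene of 35.5, so none was treated as a duplicate.

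Counts were tested with edgeR 4.0.16 in R 4.3.3 (TMM, filterByExpr with minimum count 10, legacy quasi-likelihood, intercept and group, Benjamini-Hochberg over 17423 genes at 0.05). A standard error is |log2 fold change| over the square root of F, and 95% intervals use edgeR's total degrees of freedom. DESeq2 1.42.0, limma 3.58.1 (voom), other scalings and filters, a covariate (mean log2 CPM of 10 hepatocyte markers) and leaving out each library were alternatives. Ratios used log2 of counts plus 1. Of these steps, only the group fits of edgeR, DESeq2 and limma-voom were tested on simulated counts. The 10 genes, the 5 pathway lists, the 8 marker lists and the rule for named genes (all 10 genes, the 4 smallest p of each pathway list, the 3 nearest profiles of Tgfb1, Tgfbr2 and Smad7 among genes of at least 10 CPM) were chosen with earlier results of these data known. Pmepa1 was added after its values were seen. 1 gene that the rule names is not reported here.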

Additional observations from a re-analysis of the deposited data

How the results depend on the processing

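No paired analysis was made because the labels name no pairing, and the groups share only 1 replicate number. The count of genes called over all tested genes, 0, became 1 without the filter on low counts and 621 with DESeq2, and was 0 in every fit without 1 library; 0 of the 10 core genes were called in any of these fits, with the lowest and highest count without a library both 0. With the hepatocyte covariate the log2 fold changes of Tgfb1, Tgfb2, Tgfb3 and Tgfbr2 turned to 0.12, -0.22, -0.02 and -0.09. Leaving out a library gave ranges of -0.17 to 0.07 for Tgfb1, -0.03 to 0.40 for Tgfb2, -0.10 to 0.33 for Tgfbr2, -0.27 to 0.04 for Smad3 and -0.37 to 0.02 for Smad7. The median of the co-receptor list was -0.11 with upper-quartile factors and 0.09 with the covariate, and -0.14 to 0.05 without 1 library. The covariate also moved the median of the other SMADs to 0.01 and that of the targets to -0.12. Without 1 library the target median ran from -0.09 to 0.32 and the BMP and activin median from -0.22 to 0.03. The log2 ratio differences ran from -0.04 to 0.58 for Tgfb2 over Tgfb1 and from -0.39 to 0.0035 for Smad2 over Smad3. The log2 ratio of the lowest Control to the highest TSDP library for Tgfbr3 was 0.0098 with TMM factors, and on the 2 scales added after seeing the data it was 0.078 (CPM without the factors) and -2.8e-05 (the authors' deposited normalized values). The cause of these shifts was not tested. Each of the 10 genes had 303 reads or more in every library, with 3 libraries a group; the parts of depth, group size and spread between libraries in the precision were not tested.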
